A study of Ovis aries with 32 samples.

Results

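Laminins, nidogens and integrins are the proteins that build the basement membrane and the receptors that cells hold it with. They were followed here as 38 of the 28524 genes in a count table from fat of 8 female sheep. The rule for members used symbols only, though it was set with earlier results of these data known. It took laminin chain genes (LAMA, LAMB and LAMC with a chain number), NID1 and NID2, and genes whose symbol starts with ITGA or ITGB. From these, 3 genes of integrin-binding proteins with BP in their symbol had been dropped. The testosterone group comprised sheep 48, 185, 233 and 255. Their mothers received intramuscular testosterone propionate, 100 mg (1.2 mg/kg) in 2 ml corn oil, 2 times a week between days 30 and 90 of gestation. The control group comprised sheep 98, 131, 132 and 201, whose mothers were controls. At most 1 daughter of a dam was used within a group. All 8 sheep, controls included, were ovariectomized after their second breeding season, carried an estradiol implant, and received 2 progesterone implants for 14 days and then 4 more estradiol implants (30 mm each) during the last 18 h of life, so the values describe adult fat under a fixed steroid replacement. Each sheep gave mesenteric (visceral), sternal (subcutaneous), perirenal and epicardial fat, which made 8 groups of 4 libraries.

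A laminin is a trimer of 1 alpha, 1 beta and 1 gamma chain that polymerizes into a sheet around adipocytes, vessels, muscle fibres and Schwann cells. Nidogens link that sheet to the network of type IV collagen. Integrins are pairs of an alpha and a beta chain in the plasma membrane, and the alpha chain largely decides whether the pair holds laminin, collagen, proteins with an RGD motif such as fibronectin, or other cells. The roles given below for single chains are known mainly from mice and humans. In adult fat, every mature adipocyte is wrapped in a basement membrane.

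Total counts per library lay between 784135 and 8267824. Libraries were made from the 3′ ends of transcripts, so levels are CPM (read counts scaled to library size, after TMM adjustment) with no length correction, and a fold change of 1 on the log2 scale is a doubling. All 9 listed adipocyte markers had counts in each of the 8 groups, with a summed level of 9673 to 55820 CPM. A few libraries stood apart from their group. Heart muscle transcripts (13 of 15 listed genes in the table, MYH6 and MYH7 not among them) summed to 29600, 420, 4126 and 130 CPM in epicardial libraries of testosterone sheep 48, 185, 233 and 255, and to 19590, 4158, 138 and 628 CPM in those of control sheep 98, 131, 132 and 201, while libraries from elsewhere held 43.4 to 202 CPM. ARGLU1, a splicing-related gene, reached 25680 CPM in testosterone sheep 48 (subcutaneous fat) and 18440 CPM in testosterone sheep 255 (visceral fat), against at most 4737 CPM elsewhere. The epicardial library of testosterone sheep 255 held 95.5 CPM of the trunk-position gene HOXC6, against at most 2.17 CPM in the remaining 7 from this depot. In such bulk tissue, fewer cells of a type and less RNA per cell cannot be told apart.

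Among the members, the basement membrane chains of fat were led by few genes. Over the 32 libraries, LAMB1 and LAMC1 averaged 467 CPM each, LAMA4 averaged 185 CPM and LAMA2 145 CPM. LAMA4 is the alpha chain of vessels and adipocytes, and LAMA2 that of muscle fibres and Schwann cells. LAMA5, of epithelia and mature vessels, averaged 17.3 CPM, and LAMA3, of epithelia, 12.9 CPM. LAMB1 made up 98.3 to 99.3% of the summed CPM of the measured beta chains in the group means. LAMB3, a chain of epithelial laminin, was the rest. LAMB2 was not among the members, so these shares leave it out. LAMC3 averaged 1.04 CPM, and the table held 1 count of the embryonic chain LAMA1 over all libraries. NID1 averaged 1013 CPM and NID2 76.1 CPM, so NID1 made up 91.3 to 94.7% of nidogen CPM in the group means.

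Among the integrins, ITGB1, the beta chain shared by most matrix receptors, had the highest level at 1361 CPM. ITGA1, which binds type IV and other collagens, averaged 441 CPM, and ITGA6, a laminin-binding chain of epithelia and vessels, 330 CPM. ITGAV, the RGD-binding partner of several beta chains, averaged 105 CPM, and ITGB5, which pairs with it and binds vitronectin, 92.6 CPM. All other integrin chains averaged under 30 CPM, with ITGA2 (collagen) at 26.5 CPM, ITGA7 (the chief laminin receptor chain of muscle) at 18.8 CPM and ITGAE (a chain of T cells that lodge in epithelia) at 11.2 CPM. The leukocyte chains ITGAM, ITGAX and ITGAD and the platelet and osteoclast chain ITGB3 averaged under 0.5 CPM. ITGAD, ITGAX, ITGB3, ITGB6 and LAMA1 were too low for any test, and ITGA10, LAMC3, ITGAM and ITGB4 entered only the comparison over depots or the interaction.

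**Figure D1:**
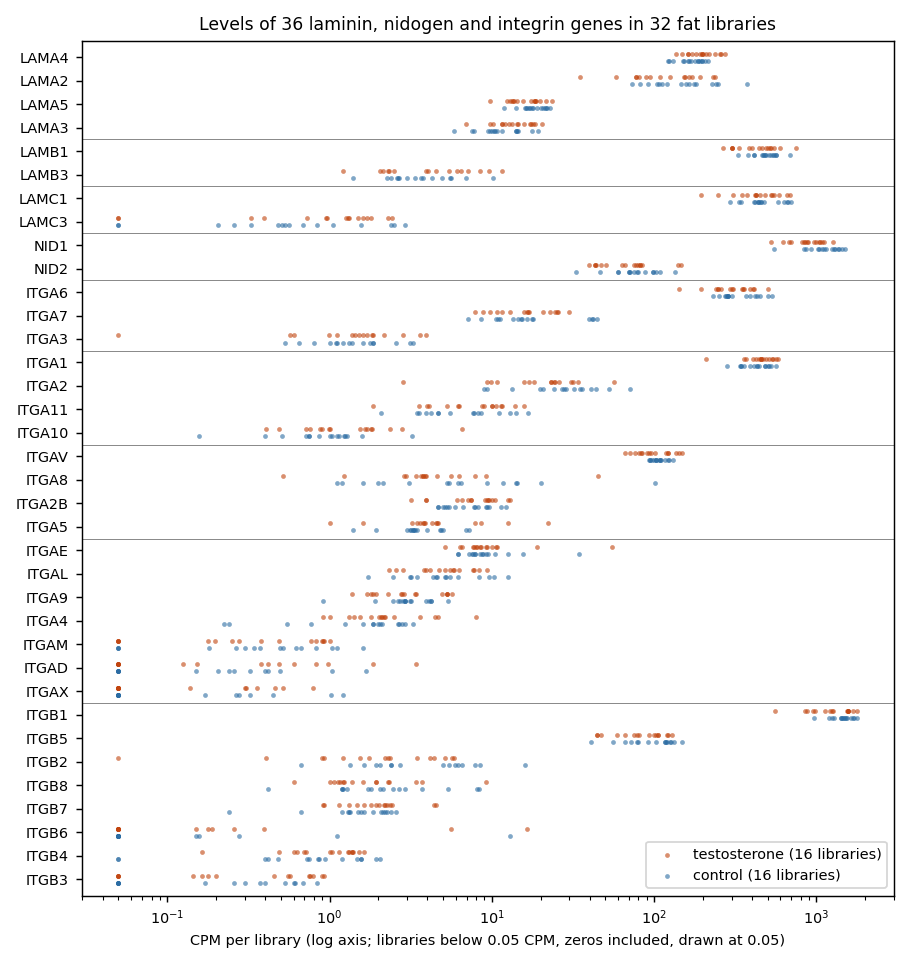
CPM of each of the 36 members with at least 10 counts in all (log axis) in every library, 16 of testosterone sheep (upper, orange) and 16 of control sheep (lower, blue), with lines between role classes. ITGB1 and NID1 lie highest at 1361 and 1013 CPM on average, and libraries below 0.05 CPM, zeros included, are drawn at 0.05.

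Each depot was next compared with the mean of the other 3, separately in testosterone and in control sheep, with the sheep as a block. The 4 contrasts of a set use the same 16 libraries and are not independent. In testosterone sheep, 0 of 28 tested members passed edgeR's quasi-likelihood test at a false discovery rate (FDR) of 0.05 in visceral fat, where 0.0895% of all 13411 genes tested did. Of those genes 0.0671% were higher and 0.0224% lower. Subcutaneous fat had 0 of 28 members (2.54% of all genes, with 1.25% higher and 1.3% lower) and perirenal fat 0 of 28 (0.559%, with 0.455% higher and 0.104% lower). Epicardial fat had 3 of 28 members, 2 higher and 1 lower (4.46% of all genes, with 2.97% higher and 1.49% lower). At an unadjusted p under 0.05 the member counts were 4, 5 and 8 in visceral, subcutaneous and perirenal fat of these sheep (8.9%, 16.3% and 20.6% of all genes), and DESeq2 called 1, 2 and 2 members there.

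In control sheep the same test called 5 of 28 members in visceral fat, 2 higher and 3 lower (5.76% of all 13369 genes, with 3.64% higher and 2.12% lower). It called 4 of 28 in subcutaneous fat, 0 higher and 4 lower (23% of all genes, with 11.5% in each direction). Perirenal fat had 3 of 28 members, 2 higher and 1 lower (13.7%, with 7.6% higher and 6.15% lower). Epicardial fat had 11 of 28, 8 higher and 3 lower (27.7%, with 15% higher and 12.8% lower). The members' share was thus above that of all genes in visceral and epicardial fat, below it in subcutaneous fat and near it in perirenal fat. In visceral fat the count was 1 to 3 members when 1 sheep was left out. The median log2 fold change of the tested members was -0.137 in visceral fat (0.005 over all genes) and 0.021 in subcutaneous fat (0.015). It was -0.081 in perirenal fat (-0.011) and 0.239 in epicardial fat (0.025). Of the 23 calls in control sheep, 21 had the same sign in testosterone sheep and 3 were called there too. Over all genes called in control sheep, 94.4% had the same sign and 9.28% were called in both sets.

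**Figure D2:**
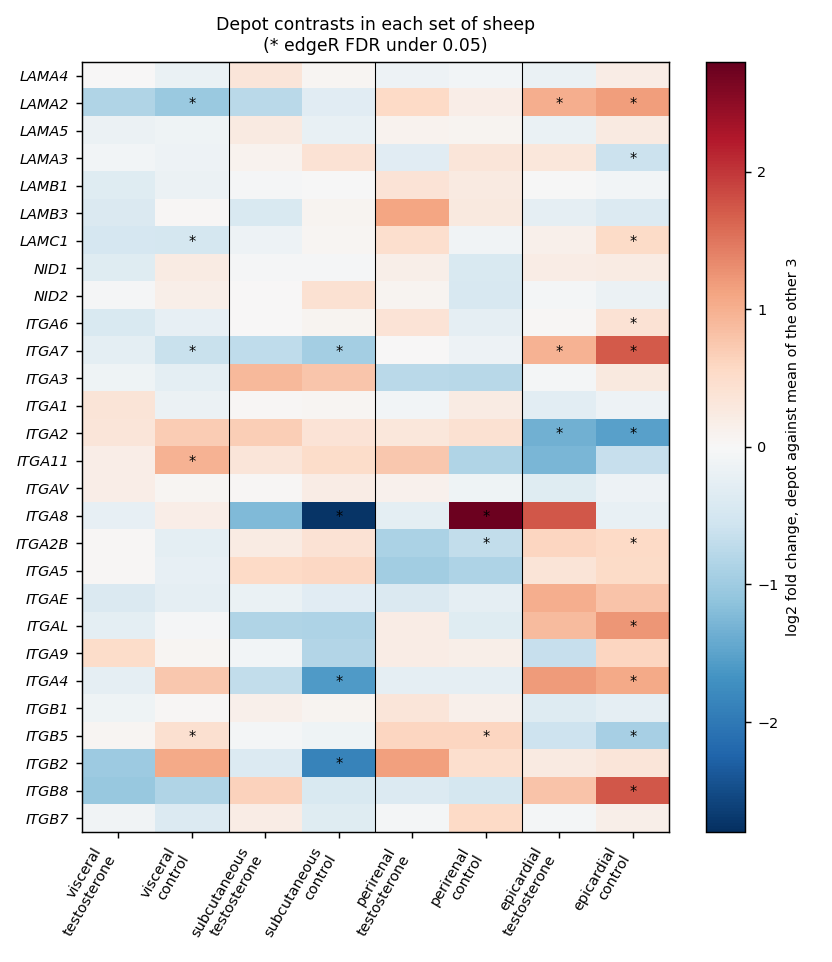
Log2 fold change (colour) of the 28 tested members in 8 contrasts, each depot against the mean of the other 3, in testosterone and in control sheep, with a star where edgeR's FDR was under 0.05. LAMA2 and ITGA7 are higher in epicardial fat of both sets, at 1.03 and 0.97 in testosterone sheep and 1.16 and 1.71 in control sheep, and ITGA2 is lower there in both.

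Among laminin alpha chains, LAMA2 differed most between depots. In epicardial fat it stood at 238, 229, 171 and 152 CPM in testosterone sheep 48, 185, 233 and 255, and at 246, 371, 228 and 241 CPM in control sheep 98, 131, 132 and 201. The other 3 depots of control sheep held 73.4 to 180 CPM, so all 4 epicardial control libraries lay above all 12 others. In testosterone sheep the other depots reached 191 CPM and the ranges overlapped. The log2 fold change against the mean of the other depots was 1.03 (SE 0.21, edgeR adjusted p = 0.0114) in testosterone sheep and 1.16 (SE 0.12, edgeR adjusted p = 2.09e-06) in control sheep. Without testosterone sheep 48, 185 or 233 the first call was lost (edgeR adjusted p = 0.0935, 0.0529 and 0.0879), while the call in control sheep held without each sheep in turn.

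Visceral fat was at the low end for LAMA2. Its libraries held 77.3, 125, 80.5 and 35.0 CPM in testosterone sheep and 81.5, 104, 91.8 and 73.4 CPM in control sheep. The 4 control values lay below the 107 to 371 CPM of all other control libraries, with a log2 fold change of -1.03 (SE 0.13, edgeR adjusted p = 0.000175). The value of 35.0 CPM came from the visceral library of testosterone sheep 255 with the high ARGLU1 level. In control sheep the group means therefore ran upward through visceral (87.7 ± 13.2 CPM), subcutaneous (126 ± 26.2), perirenal (165 ± 16.1) and epicardial fat (272 ± 66.6 CPM, SD, n = 4 each), where the visceral and subcutaneous ranges did not overlap and neither did the perirenal and epicardial ones. LAMA2 accordingly made up 48.4 ± 5.79% of alpha-chain CPM in epicardial fat of testosterone sheep and 55.2 ± 5.52% in that of control sheep, against 25.0 ± 7.90% and 32.5 ± 3.57% in visceral fat (SD, n = 4 each).

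LAMA4 did not follow this order. Its control means were 155 ± 28.0 CPM in visceral, 175 ± 38.6 in subcutaneous, 165 ± 27.9 in perirenal and 188 ± 18.9 CPM in epicardial fat (SD, n = 4), with overlapping ranges, and no depot passed the test. LAMA5 and LAMB1 passed in no depot either. LAMA3, the epithelial chain, was lower in epicardial fat of control sheep, where the 4 libraries held 7.75, 9.50, 5.87 and 10.1 CPM and the other depots 7.59 to 19.2 CPM. The fold change on the log2 scale was -0.60 (SE 0.19, edgeR adjusted p = 0.0223), and it was lost without control sheep 98, 131 or 132 (edgeR adjusted p = 0.0906 to 0.103). In testosterone sheep epicardial LAMA3 was at 11.6 to 20.3 CPM, its fold change had the opposite sign, and it did not pass.

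LAMC1, the gamma chain of most laminins, was at 424, 550, 421 and 450 CPM in epicardial fat of testosterone sheep and at 452, 665, 654 and 698 CPM in that of control sheep. In control sheep it was higher in epicardial fat (log2 fold change 0.53, SE 0.12, edgeR adjusted p = 0.00361) and lower in visceral fat (-0.48, SE 0.13, edgeR adjusted p = 0.0349), where the libraries held 294 to 442 CPM. The ranges of these depots met those of the others. The epicardial call was lost without control sheep 201 (edgeR adjusted p = 0.0524) and the visceral call without any 1 of the 4 sheep (0.0900 to 0.116). NID1 and NID2, the linkers to collagen IV, passed in no depot of either set. Epicardial NID1 averaged 962 ± 90.8 CPM in testosterone sheep and 1253 ± 156 CPM in control sheep (SD, n = 4).

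ITGA7 had the clearest depot difference of the receptors. It was at 24.5, 29.7, 25.0 and 25.6 CPM in epicardial fat of testosterone sheep 48, 185, 233 and 255, and at 39.4, 41.9, 44.4 and 41.3 CPM in that of control sheep 98, 131, 132 and 201. The other depots held 7.88 to 23.0 CPM in testosterone sheep and 7.10 to 18.0 CPM in control sheep. Within each set, every epicardial library thus lay above every library of the other depots. The fold change on the log2 scale was 0.97 (SE 0.18, edgeR adjusted p = 0.00701) in testosterone sheep and 1.71 (SE 0.14, edgeR adjusted p = 1.67e-07) in control sheep. The call in testosterone sheep was lost without sheep 185 (edgeR adjusted p = 0.0802), and that in control sheep held without each sheep.

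The subcutaneous and visceral depots of control sheep were at the low end for ITGA7. Subcutaneous libraries held 8.63, 10.9, 16.5 and 7.10 CPM (log2 fold change -0.95, SE 0.16, edgeR adjusted p = 0.000667), and visceral ones 13.5, 11.2, 15.3 and 10.6 CPM (-0.62, SE 0.15, edgeR adjusted p = 0.0258). These values overlap those of the other depots. The visceral call was lost without control sheep 131, 132 or 201 (edgeR adjusted p = 0.0653 to 0.177). ITGA6 was higher in epicardial fat of control sheep at 423 ± 105 CPM, against 304 ± 59.8 in visceral, 357 ± 107 in subcutaneous and 307 ± 87.5 CPM in perirenal fat (SD, n = 4; log2 fold change 0.41, SE 0.12, edgeR adjusted p = 0.0172). Its ranges overlapped, and the call was lost without control sheep 131 or 201 (edgeR adjusted p = 0.108 and 0.0970). In testosterone sheep its log2 fold change was 0.04. ITGA3, the third laminin-binding chain, averaged 1.63 CPM and passed nowhere.

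**Figure D3:**
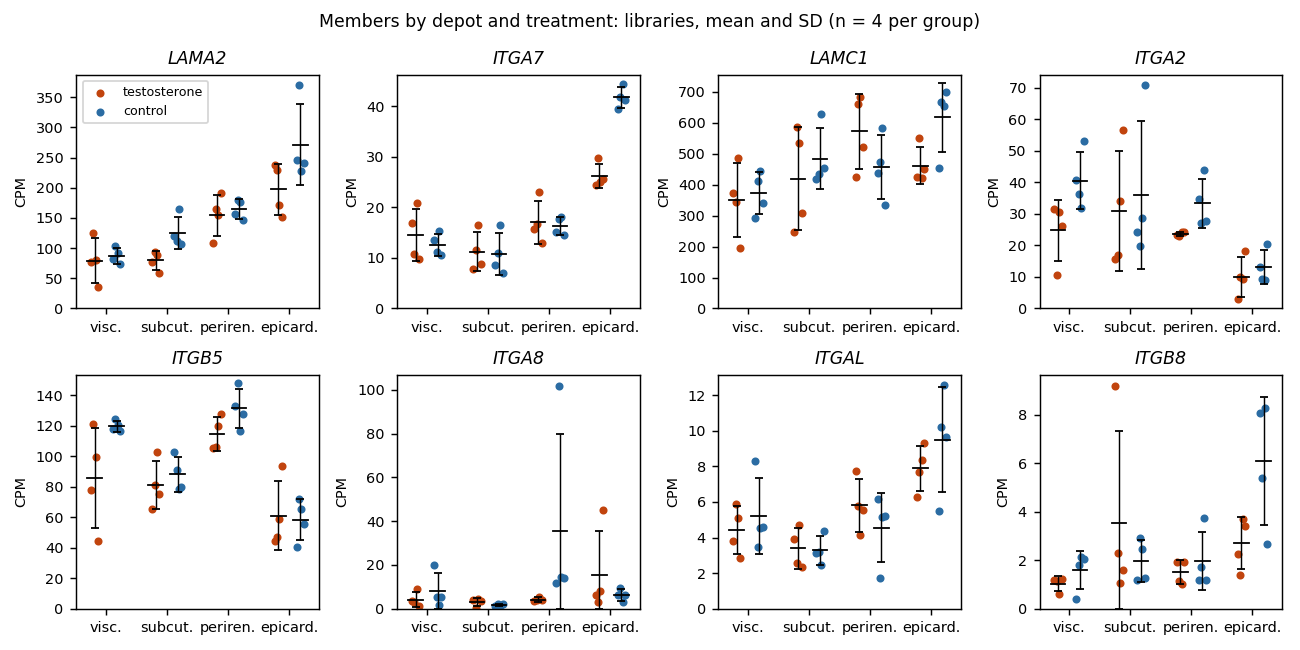
CPM of 8 members in each library by depot (visceral, subcutaneous, perirenal, epicardial), testosterone sheep left (orange) and control sheep right (blue), with mean and SD (n = 4; bars are not drawn below 0). All 8 epicardial ITGA7 values, 24.5 to 44.4 CPM, lie above every value of the other depots, which reach 23.0 CPM.

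Marker sums of some other cell types also differed in epicardial fat of control sheep, and the part of these cells in the epicardial values was not tested. In control sheep the fibroblast list (6 of 6 genes with counts) summed to 4608 to 6682 CPM in epicardial fat and to 2594 to 4457 CPM in the other depots. The adipocyte list summed to 9814 to 24970 CPM in epicardial fat, against 28540 to 55820 CPM, and the endothelial list (9 of 9) to 697 to 785 CPM, against 917 to 1118 CPM. Schwann cells make LAMA2 and ITGA7. Of 7 tested Schwann cell markers, 5 were higher (ERBB3, MBP and CDH19 among them; 15% of all genes) and S100B was lower (12.8%). Their summed level was 312 to 654 CPM in epicardial fat and 384 to 980 CPM in the other depots. In testosterone sheep 6 of 8 Schwann markers were higher (2.97% of all genes), with sums of 419 to 894 CPM, against 241 to 1046 CPM. Fibroblast, adipocyte and endothelial sums of these sheep overlapped between epicardial fat and the other depots. They were 3404 to 4490 against 2124 to 7726 CPM for fibroblasts and 10400 to 30570 against 9673 to 55430 CPM for adipocytes. Endothelial sums were 554 to 1143 against 838 to 1529 CPM. For heart muscle, ITGA7 was 44.4 CPM in the control library with a cardiac sum of 138 CPM and 39.4 CPM in that with 19590 CPM, and LAMA2 was 228 and 246 CPM in the same libraries. In testosterone sheep LAMA2 was highest, at 238 CPM, with the highest cardiac sum (29600 CPM) and lowest, at 152 CPM, with the lowest (130 CPM). That last library, from sheep 255, was the one with trunk HOXC6. The library at 420 CPM held 229 CPM and that at 4126 CPM held 171 CPM. Without the libraries that stood apart, 6 of 30 tested members passed in epicardial fat of testosterone sheep (15.1% of all genes). In that of control sheep 8 of 29 passed (19.8% of all genes), with LAMA2 and ITGA7 among both sets. These fits still held the epicardial libraries with cardiac sums of 4126 CPM (testosterone sheep 233) and 4158 CPM (control sheep 131).

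Collagen-binding chains showed a different arrangement. ITGA2 was at 2.85, 9.84, 9.28 and 18.2 CPM in epicardial fat of testosterone sheep and at 13.3, 9.31, 8.98 and 20.5 CPM in that of control sheep, against 10.8 to 56.4 CPM and 19.9 to 70.8 CPM in the other depots. Epicardial fat was low in both sets, with slight overlap of the ranges. The fold change on the log2 scale was -1.35 (SE 0.34, edgeR adjusted p = 0.0366) in testosterone sheep and -1.51 (SE 0.24, edgeR adjusted p = 0.000309) in control sheep. The first call was lost without testosterone sheep 48, 185 or 233 (edgeR adjusted p = 0.135, 0.0702 and 0.253) and without the libraries that stood apart (0.0624), and the second held without each sheep. ITGA11, a fibrillar-collagen receptor chain of fibroblasts, was at 14.02, 12.98, 8.25 and 8.54 CPM in visceral fat of control sheep, where the other depots held 2.06 to 16.7 CPM. Its fold change on the log2 scale was 0.98 (SE 0.26, edgeR adjusted p = 0.0350), which was lost without control sheep 98, 131 or 132 (0.0987 to 0.165). ITGA1, the most abundant chain of this class, passed in no depot, and its group means lay between 392 and 536 CPM.

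Of the RGD-binding chains, ITGA8, which binds nephronectin and osteopontin, varied most. Perirenal libraries held 3.64, 3.78, 5.60 and 3.88 CPM in testosterone sheep, and 11.7, 102, 14.3 and 14.0 CPM in control sheep 98, 131, 132 and 201. The perirenal control values thus rest on 3 like libraries and 1 that was over 7 times higher. Subcutaneous libraries of control sheep held 1.12 to 2.12 CPM. In control sheep the fold change on the log2 scale was 2.74 (SE 0.53, edgeR adjusted p = 0.00844) for perirenal fat, lost without control sheep 132 or 201 (0.0538 and 0.0504), and -2.74 (SE 0.75, edgeR adjusted p = 0.0241) for subcutaneous fat, lost without the same sheep (0.102 and 0.0907). The perirenal log2 fold change in testosterone sheep was -0.26 and did not pass.

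ITGA8 also reached 45.0 CPM in the epicardial library of testosterone sheep 255, the one with trunk HOXC6, where the other 3 held 2.95 to 7.88 CPM. Smooth muscle and pericyte markers (10 of 10 with counts) summed to 1002 CPM in that library, against 517 to 715 CPM in the other 3, and to 1527 CPM in the perirenal library of control sheep 131, against 553 to 811 CPM in the other 3. They also reached 1131 CPM in subcutaneous fat of testosterone sheep 48, where ITGA8 was at 3.94 CPM. Their part in ITGA8 was not tested.

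ITGA2B, the alpha chain of the platelet fibrinogen receptor, was lower in perirenal fat of control sheep, at 4.68 to 5.28 CPM (log2 fold change -0.68, SE 0.21, edgeR adjusted p = 0.0417), and higher in epicardial fat, at 7.82 to 11.3 CPM (0.56, SE 0.20, edgeR adjusted p = 0.0476). The perirenal call was lost without each sheep in turn (edgeR adjusted p = 0.0691 to 0.201), and the epicardial call without control sheep 98, 132 or 201 (0.141 to 0.156). The other platelet markers (3 of 4 listed in the table) were at or near 0, with no count of GP9 in any group and a summed level of at most 1.05 CPM in any library. ITGAV, the leading chain of this class, had group means between 83.1 and 119 CPM and passed in no depot. ITGA5, the fibronectin receptor chain, also passed nowhere, although its perirenal control libraries, at 1.40 to 3.12 CPM, all lay below the 3.19 to 7.19 CPM of the other control libraries.

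The leukocyte chains were low, and of those tested ITGAL was called in epicardial fat of control sheep, ITGB2 in subcutaneous fat and ITGA4 in both. ITGAL, the T-cell chain that binds ICAM1, was at 6.27, 7.68, 8.35 and 9.30 CPM in epicardial fat of testosterone sheep and at 5.49, 10.2, 12.6 and 9.65 CPM in that of control sheep, against 2.33 to 7.75 CPM and 1.72 to 8.33 CPM in the other depots. Among control sheep, only the epicardial library of sheep 98, the one with the highest heart muscle sum of that group, lay within the range of the other depots. In control sheep the fold change on the log2 scale was 1.238 (SE 0.27, edgeR adjusted p = 0.00287), and it held without each sheep. ITGA4, the chain that binds VCAM1 and fibronectin, was higher in epicardial fat of control sheep, at 1.86 to 3.28 CPM (1.07, SE 0.38, edgeR adjusted p = 0.0442), and lower in subcutaneous fat, at 0.223 to 1.86 CPM (-1.58, SE 0.48, edgeR adjusted p = 0.0254). Each ITGA4 call was lost without control sheep 98, 132 or 201 (edgeR adjusted p = 0.101 to 0.282 and 0.109 to 0.131).

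ITGB2, the beta chain of the leukocyte integrins, was lower in subcutaneous fat of control sheep, at 2.40, 1.33, 0.670 and 1.64 CPM, while the remaining depots had 1.94 to 15.96 CPM (log2 fold change -1.87, SE 0.52, edgeR adjusted p = 0.0172). The ranges overlapped, and the call was lost without control sheep 131 or 132 (edgeR adjusted p = 0.0629 and 0.106). T and NK cell markers (9 of 9 with counts) summed to 13.9 to 27.1 CPM in subcutaneous fat of control sheep and to 59.1 to 113 CPM in epicardial fat, against 42.0 to 94.4 CPM in visceral and perirenal fat. All 8 tested T and NK markers were higher in epicardial fat of these sheep (15% of all genes). Macrophage markers (7 of 9 listed in the table) summed to 379 to 586 CPM in subcutaneous fat and 346 to 709 CPM in epicardial fat of control sheep, against 758 to 940 CPM in visceral and 659 to 927 CPM in perirenal fat. Of 7 tested macrophage markers, 4 were lower in subcutaneous fat (11.5% of all genes), where all 8 tested T and NK markers were lower too. The part of these cells in ITGAL, ITGA4 and ITGB2 was not tested.

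ITGAE and ITGB6 went with heart muscle transcripts inside epicardial fat. ITGAE was at 54.7, 9.25, 19.0 and 5.12 CPM in epicardial libraries of testosterone sheep 48, 185, 233 and 255, and at 34.6, 15.5, 6.21 and 9.45 CPM in those of control sheep 98, 131, 132 and 201. In each set this is the order of the cardiac sums, whose part in these values was not tested. The other depots held 6.16 to 12.7 CPM. ITGB6, known from epithelia as the partner of ITGAV that activates TGF-beta, was at 16.5, 0.394, 5.57 and 0.190 CPM in the testosterone libraries, and at 12.9, 1.12, 0 and 0 CPM in the control libraries. No other depot exceeded 0.278 CPM, and subcutaneous control libraries had no count, which allows up to 0.167 CPM. ITGAE did not pass in epicardial fat (log2 fold change 1.01, SE 0.36, edgeR adjusted p = 0.129 in testosterone sheep, and 0.81, SE 0.30, 0.0554 in control sheep), and ITGB6 was too low to be tested.

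**Figure D4:**
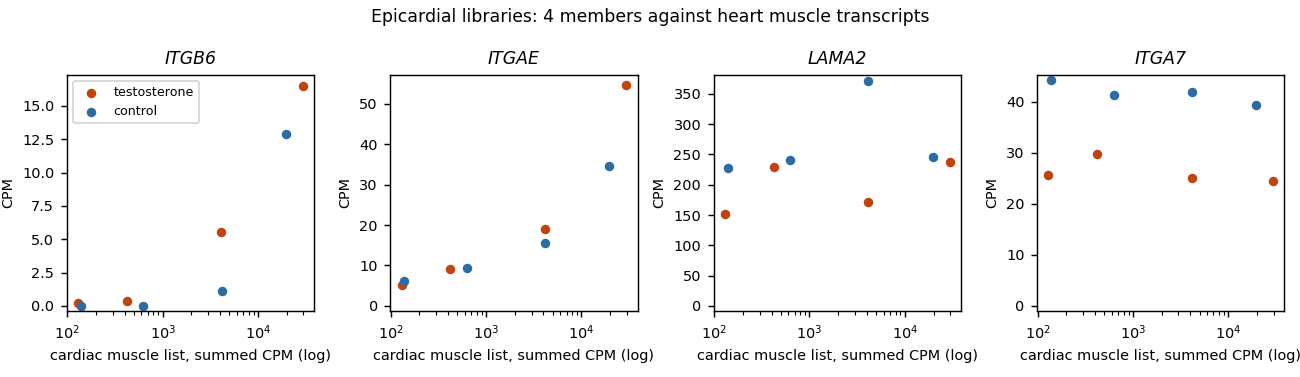
CPM of 4 members in the 8 epicardial libraries (testosterone sheep orange, control sheep blue) against the summed CPM of heart muscle markers (log axis). ITGB6 and ITGAE are highest, at 16.5 and 54.7 CPM, in the library with the highest sum of 29600 CPM, while ITGA7 stays between 39.4 and 44.4 CPM in control libraries whose sums run from 138 to 19590 CPM.

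Among the beta chains, ITGB5 differed between depots in control sheep. Epicardial libraries held 44.4, 47.2, 58.9 and 93.6 CPM in testosterone sheep and 40.7, 72.1, 65.8 and 55.7 CPM in control sheep. The 4 control values lay below all 12 libraries of the other depots, which held 78.6 to 148 CPM, and in testosterone sheep the ranges overlapped. ITGB5 passed in no depot of testosterone sheep. Its unadjusted edgeR p was under 0.05 in their epicardial and perirenal fat, where 19.7% and 20.6% of all genes were under it. In control sheep the fold change on the log2 scale was -0.92 (SE 0.13, edgeR adjusted p = 6.21e-05) in epicardial fat and 0.61 (SE 0.12, edgeR adjusted p = 0.00338) in perirenal fat, where the libraries held 117 to 148 CPM, and both held without each sheep. The visceral call (0.44, SE 0.12, edgeR adjusted p = 0.0357, 117 to 125 CPM) was lost without control sheep 131, 132 or 201 (0.105 to 0.153). The adipocyte sums given above were also lowest in epicardial fat of control sheep, and their part in ITGB5 was not tested.

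ITGB8, whose pair with ITGAV activates TGF-beta, was at 2.28, 1.38, 3.71 and 3.42 CPM in epicardial fat of testosterone sheep and at 8.08, 5.40, 8.29 and 2.67 CPM in that of control sheep, against 0.416 to 3.74 CPM in other control libraries. The epicardial library of control sheep 201 lay within that range. The log2 fold change in control sheep was 1.74 (SE 0.33, edgeR adjusted p = 0.000854), which held without each sheep. ITGB1, the shared beta chain, passed in no depot, with group means of 1011 to 1567 CPM. ITGB7, the partner of ITGAE and ITGA4, averaged 1.87 CPM and passed nowhere.

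The next comparison asked whether testosterone before birth changed these genes in each adult depot. With edgeR's test, 0 members passed an FDR of 0.05 among 26 tested in visceral fat, 24 in subcutaneous fat, 27 in perirenal fat and 26 in epicardial fat, and 0% of all genes passed in each of these 4 comparisons. Over depots, on counts summed per sheep, 0 of 32 passed, where 0.00654% of all genes did. DESeq2 also called 0 members in each. At an unadjusted p under 0.05, edgeR's member counts were 2 (visceral), 1 (subcutaneous fat), 3 (perirenal), 4 (epicardial fat) and 2 over depots. Its shares of all genes were 9.42%, 5.11%, 5.37%, 5.64% and 6.8%. DESeq2's member counts were 3, 2, 2, 5 and 2. Its shares of all genes at that level were not counted, so these counts cannot be set against a background. A count of 0 with 4 sheep in a group does not show that levels were alike.

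The groups did not overlap for 3 of 26 members in visceral fat (ITGB2, ITGA2 and ITGA1), 1 of 24 in subcutaneous fat (LAMA2), 3 of 27 in perirenal fat (ITGA11, ITGA2 and ITGA8) and 3 of 26 in epicardial fat (ITGA7, LAMA3 and NID1). Over all genes tested the share without overlap was 5.61%, 3.31%, 2.91% and 3.71% in these depots. The members described next were chosen after their values had been seen, and none of them passed.

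For the laminins and nidogens, subcutaneous LAMA2 was at 77.5, 93.8, 88.5 and 58.6 CPM in testosterone sheep 48, 185, 233 and 255, and at 119, 111, 164 and 108 CPM in control sheep 98, 131, 132 and 201 (log2 fold change -0.63, SE 0.22, edgeR adjusted p = 0.927). Every testosterone library lay below every control library. Epicardial LAMA3 was at 14.2, 11.6, 18.6 and 20.3 CPM in testosterone sheep and 7.75, 9.50, 5.87 and 10.1 CPM in control sheep (1.00, SE 0.27, edgeR adjusted p = 0.696), again without overlap. Visceral NID1 was at 521, 626, 998 and 844 CPM in testosterone sheep and 1358, 1492, 859 and 1377 CPM in control sheep (-0.74, SE 0.28, edgeR adjusted p = 0.520), with overlap at control sheep 132. Adipocyte markers also separated these visceral groups, at 9673 to 33180 CPM in testosterone sheep and 33410 to 55820 CPM in control sheep, and their part in the visceral values of NID1, ITGB2, ITGA2 and ITGA1 was not tested. Summed over depots, the NID1 fold change on the log2 scale was -0.39 (SE 0.14, edgeR adjusted p = 0.707).

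For the receptors, epicardial ITGA7 stood at 24.5 to 29.7 CPM in testosterone sheep and 39.4 to 44.4 CPM in control sheep (log2 fold change -0.63, SE 0.15, edgeR adjusted p = 0.696). The gap between the groups was wider than the range within either. In the same libraries fibroblast markers summed to 3404 to 4490 CPM in testosterone sheep and 4608 to 6682 CPM in control sheep, and mesothelial markers (7 listed) to 48.2 to 73.7 CPM and 79.2 to 88.8 CPM, also without overlap. Their part in epicardial ITGA7, LAMA3 and NID1 was not tested. Visceral ITGB2 was at 2.21, 1.75, 1.20 and 0.407 CPM in testosterone sheep and 15.96, 5.42, 6.52 and 2.73 CPM in control sheep (-2.36, SE 0.58, edgeR adjusted p = 0.520), with macrophage sums of 419 to 1019 and 758 to 940 CPM in these groups. Perirenal ITGA8, given above, had a log2 fold change of -3.07 (SE 0.78, edgeR adjusted p = 0.878). Perirenal ITGA11 was at 11.39, 10.03, 10.04 and 13.85 CPM in testosterone sheep and 4.66, 3.90, 2.06 and 7.80 CPM in control sheep (1.31, SE 0.35, edgeR adjusted p = 0.878).

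**Figure D5:**
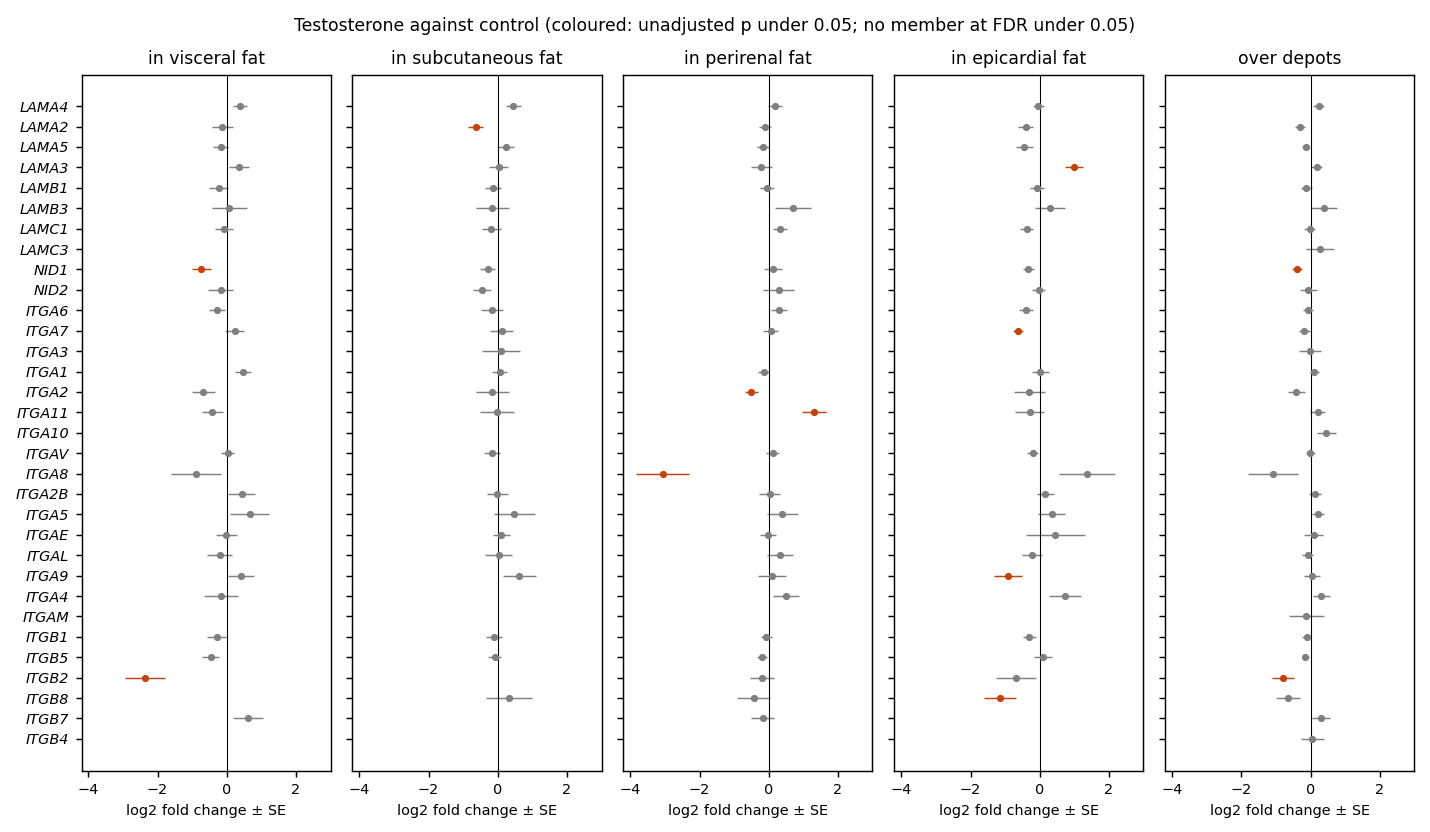
Log2 fold change ± SE of tested members, testosterone over control sheep, in each depot and over depots (4 sheep per group), with members at an unadjusted p under 0.05 in orange. No member passed an FDR of 0.05, and the values run from -3.07 for ITGA8 in perirenal fat to 1.37 for ITGA8 in epicardial fat.

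Whether the effect of testosterone differed between depots was tested as a joint interaction, fitted to the 32 libraries and blocked by sheep. Here 0 of 30 members passed an FDR of 0.05 with edgeR (0.00703% of all genes did) and 0 with DESeq2. At an unadjusted p under 0.05 edgeR had 5 members (ITGA8, ITGA11, LAMA3, ITGA7 and ITGB2, each at an edgeR adjusted p of 0.994), against 4.61% of all genes. DESeq2 had 7, and its share of all genes was not counted. The difference in depot calls between testosterone and control sheep therefore did not pass a test of its own for any member.

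The other genes of the basement membrane and of integrin signalling gave a setting for the members. Of 17 tested basement membrane genes, 7 were higher and 1 lower in subcutaneous fat of control sheep (11.5% of all genes in each direction), with a median log2 fold change of 0.41 against 0.02 over all genes. The type IV collagen chains COL4A1 and COL4A2 were higher by 0.70 (SE 0.16) and 1.03 (SE 0.17), the collagen chaperone SPARC by 0.74 (SE 0.20) and the netrin NTN4 by 1.01 (SE 0.13), while the proteoglycan AGRN was lower at -0.70 (SE 0.22). In epicardial fat of control sheep 3 were higher (COL4A3, COL4A4 and AGRN; 15% of all genes) and 6 lower (12.8% of all genes), among them COL4A2 at -0.61 (SE 0.19) and SPARC at -0.93 (SE 0.22). Without the libraries that stood apart, 2 were higher there (COL4A4 and AGRN) and 3 lower (PXDN, SPARC and SMOC2). Epicardial COL4A3 and COL4A2 thus no longer passed. Perirenal fat had 2 lower (COL4A1 and NTN4; 6.15% of all genes) and visceral fat 0. Without the libraries that stood apart, COL15A1 and NTN4 were lower in perirenal fat, and COL4A1 no longer passed. In testosterone sheep COL4A2 was higher in subcutaneous fat (0.92, SE 0.23, edgeR adjusted p = 0.0479) and the list had no other call.

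Of 16 tested laminin receptors that are not integrins, 4 were called in visceral fat of control sheep (5.76% of all genes), 6 in subcutaneous fat (23%), 3 in perirenal fat (13.7%) and 2 in epicardial fat (27.7%). The epicardial count was thus below the share of all genes, and the perirenal one near it. DMD, dystrophin, which ties the laminin receptor dystroglycan to actin, was higher in epicardial fat by 2.47 (SE 0.47, edgeR adjusted p = 0.00930) in testosterone sheep and 2.18 (SE 0.39, edgeR adjusted p = 0.00205) in control sheep. It was at 457, 50.4, 308 and 47.3 CPM in testosterone sheep 48, 185, 233 and 255 and at 325, 81.8, 33.8 and 71.7 CPM in control sheep 98, 131, 132 and 201, and was high where heart muscle sums were high. It still passed in both sets without the libraries that stood apart. Those fits kept the epicardial libraries of testosterone sheep 233 and control sheep 131, with heart muscle sums of 4126 and 4158 CPM. They therefore cannot separate DMD from heart muscle, whose part in DMD was not tested. SGCB, a sarcoglycan, was lower in epicardial fat of control sheep at -1.17 (SE 0.15) and higher in visceral fat at 0.96 (SE 0.13).

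In epicardial fat of control sheep, where 15% of all genes were higher and 12.8% lower, 6 of 22 integrin adaptors and kinases were lower, among them the actin crosslinker ACTN1 at -1.11 (SE 0.16) and parvin PARVA at -0.87 (SE 0.13), and the leukocyte parvin PARVG was higher. In perirenal fat 6 adaptors were higher and 1 lower (7.6% and 6.15% of all genes), in subcutaneous fat 4 higher and 1 lower (11.5% each), and in visceral fat 2 lower (2.12%). Of 11 ligands, 5 were lower in epicardial fat, with THBS1 at -2.57 (SE 0.20) and POSTN at -2.32 (SE 0.20), and FN1, fibronectin, was higher at 1.31 (SE 0.43). FN1 no longer passed without the epicardial library of control sheep 98. THBS1 and POSTN were also lower in epicardial fat of testosterone sheep, at -1.85 (SE 0.37) and -1.17 (SE 0.31), and SPP1, osteopontin, was higher at 2.00 (SE 0.40). For testosterone against control, none of the 4 lists had a gene at an FDR of 0.05 in any depot or over depots with edgeR.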

How the data were processed

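The deposited table holds raw counts of reads per gene, which the authors did not normalize, for 28524 genes and 32 libraries. Per the submitters' processing notes, the tools were STAR, Trimmomatic 0.36, featureCounts 1.6.1, FastQC 0.11.5, MultiQC 0.9, DESeq2 1.24.0 and R 3.6.3. Genome build, annotation and strand setting were not given in the sources used here. Thus reads of overlapping genes may be misassigned. Per the labels' protocols, RNA had an integrity number of at least 7 and was made into 3′ end libraries.

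CPM and tests came from edgeR 4.0.16 (R 4.3.3): TMM factors, a filterByExpr filter (minimum count 10), robust quasi-likelihood fits, and Benjamini-Hochberg adjustment over all genes tested. The SE is |log2 fold change| over the root of the F statistic. Testosterone was fitted within each depot and on counts summed over depots per sheep. Depot contrasts (1 depot minus the mean of the other 3) and the interaction had the sheep as a block, because all 4 depots came from each animal. As a check, deviations from group means correlated over 0.1 in 41 of 48 pairs of depots of 1 sheep (mean 0.23, from -0.123 to 0.481). Libraries of a group come from separate sheep, and no pair among 48 replicate pairs was identical, with chi-square values of at least 10.7 per degree of freedom.

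Alternatives were DESeq2 1.42.0, RLE factors, no filter, no block, each sheep left out, and 5 libraries set aside as standing apart (epicardial 48, 255 and 98, subcutaneous 48, visceral 255). Some of the fits were also run on simulated counts that held no sheep effect and no library standing apart. The outcomes are not given here, and such counts cannot show how the fits handle those features.

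The members, lists and libraries set aside were chosen with earlier results of these data known. Statistics are given for members past an FDR of 0.05 in a testosterone or interaction test, for up to 6 higher and 6 lower members per depot past it in control sheep, and for the highest member of each role class. Other members, such as ITGB6 and ITGA5, were named after their values had been seen, and so was the order of ITGAE with the heart muscle sums. Sequences and coordinates are not used here. Limits from counts of 0 rest on 3 counts over a group and cover counting error only, since the reads carry no molecular identifiers. A few genes are not reported here.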

Additional observations from a re-analysis of the deposited data

Results flagged for a closer look

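Single libraries stood apart in 13 of the 178 groups of 4 checked for 23 members, where the gap to the nearest other library, as a share of the group's range, was above Dixon's 95% critical value. Chance alone puts about 1 in 20 groups past that limit. ITGA8 was at 101.7 CPM in perirenal fat of control sheep 131 (11.7 to 14.3 CPM in the other 3 controls), 5.595 CPM in perirenal fat of testosterone sheep 233 (3.64 to 3.88) and 44.98 CPM in epicardial fat of testosterone sheep 255 (2.95 to 7.88), the library with trunk HOXC6. ITGB6 was at 12.92 CPM in epicardial fat of control sheep 98 (0 to 1.12), which held the highest heart muscle sum of the controls. LAMA2 was at 370.8 CPM in epicardial fat of control sheep 131 (228 to 246). ITGB8 was at 9.196 CPM in subcutaneous fat of testosterone sheep 48 (1.07 to 2.32), the library with the highest ARGLU1 level and the lowest total count, and at 0.6018 CPM in visceral fat of testosterone sheep 233 (1.13 to 1.22).

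The remaining values were closer to their groups. ITGA1 was at 356.2 CPM in perirenal fat of testosterone sheep 48 (457 to 466), ITGAE at 10.66 CPM in the same library (7.62 to 8.06) and at 12.65 CPM in visceral fat of control sheep 131 (7.19 to 7.91), and ITGA9 at 3.942 CPM in that visceral library (2.73 to 2.93). ITGB1 was at 1677 CPM in subcutaneous fat of control sheep 98 (1413 to 1433) and LAMC1 at 629.2 CPM in that of control sheep 132 (419 to 454).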

How the results depend on the processing

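The counts of 0 members for testosterone in each depot, over depots and in the interaction were 0 under every alternative run, and 0 when each sheep was left out. In testosterone sheep DESeq2 called 1 visceral, 2 subcutaneous, 2 perirenal and 7 epicardial members, against 0, 0, 0 and 3 with edgeR, while its calls over all genes were 156, 841, 869 and 1204, against 12, 341, 75 and 598. Without the libraries that stood apart, edgeR called 1 subcutaneous (LAMA2, lower), 3 perirenal and 6 epicardial members in these sheep (4.35%, 7.93% and 15.1% of all genes), and without a filter 5 in epicardial fat. The causes were not tested. Leaving out 1 sheep gave 0 to 6 members in epicardial fat of testosterone sheep (0 without sheep 185, 1 without 48, 1 without 233, 6 without 255), where the count over all genes was 101 to 1579, and 0 in their other depots. In control sheep it gave 1 to 3 visceral, 2 to 4 subcutaneous, 1 to 2 perirenal and 7 to 9 epicardial members, with 202 to 475, 1740 to 2285, 656 to 1581 and 2578 to 2920 calls over all genes.

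With no replicate block the count in visceral fat of control sheep was 1 in place of 5, and the other blocked counts stayed within 1.5 times (4, 2 and 8 in subcutaneous, perirenal and epicardial fat of control sheep, 0, 0, 0 and 3 in testosterone sheep, 0 for the interaction). Of 368 alternative values for named members, 303 stayed on the same side of the threshold, 65 no longer passed and 0 changed sign. The 303 include testosterone results at an unadjusted p under 0.05 that had not passed to begin with. All 65 losses fall among the depot calls, so the pooled share makes those calls look steadier than they were. DESeq2 gave no adjusted p for 5. The comparison over depots was not run without the libraries that stood apart, since sheep would then sum different depots. Depth limits the lowest members most, and some were too low for any test.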

Other observations

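The share of LAMA2 in the summed counts of LAMA2 and LAMA4, the main alpha chains of these libraries, was examined after their values had been seen. In subcutaneous fat it was 28.0, 25.7, 25.5 and 21.9% in testosterone sheep 48, 185, 233 and 255, and 49.6, 38.4, 43.5 and 36.6% in control sheep 98, 131, 132 and 201. Since the pair was chosen for these values, they are given with no test. The mean share was 27.5 ± 8.15% in testosterone sheep and 36.3 ± 4.57% in control sheep in visceral fat, 45.4 ± 9.09% in testosterone sheep and 50.1 ± 5.42% in control sheep in perirenal fat, and 52.5 ± 5.01% in testosterone sheep and 58.7 ± 5.47% in control sheep in epicardial fat (SD, n = 4 each).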
